A study of Mus musculus with 5480 samples.

Results

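Pericytes of the distal mouse lung were compared between postnatal days 7 and 21 (P7 and P21) in normal air. The members were all cells that carry the subtype label Pericyte in these groups, 202 of the 5480 sequenced cells. At P7 they came from a female mouse (26 cells) and a male mouse (31 cells), and at P21 from a female (70 cells) and a male (75 cells). All reads of a mouse's pericytes were added up, so a mouse is 1 sample and each age has 2. The cells were sorted by flow cytometry from distal lung into plates, each well gave a Tn5 transposase library, and the deposited labels call them mesenchymal. The normal-air mice were of embryonic day 18.5 (E18.5), P1, P7 or P21, a hyperoxia group was of P7, and each group held 1 female and 1 male. Pericytes of the E18.5 mice (14 and 14 cells) and the P1 mice (23 and 20 cells) entered the fit to estimate the spread between mice, and the hyperoxia mice (5 and 3 pericytes) stayed out. No transgene, drug or deletion is named for any group, and the strain is not given in the sources used here.

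Pericytes sit in the wall of capillaries, share a basement membrane with the endothelial cells and are held there by PDGF-B acting on the receptor PDGFRB. In the lung they belong with vascular smooth muscle to the mural cells. Smooth muscle carries a dense set of contractile proteins, pericytes much less of it. The weeks after birth are when the mouse lung divides its airspaces into alveoli and remodels its capillary bed.

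Taken as a sum, the cells carried the markers of their label at both ages. The 10 pericyte markers, among them Pdgfrb, the proteoglycan gene Cspg4, Notch3, Cox4i2, Higd1b and Postn, summed to 13911.5 and 18228 CPM (read counts scaled to the same total in each mouse) in the female and male P7 mice and to 21297 and 18904 at P21. Vascular smooth muscle of the same mice held 3025 to 5183 CPM of these markers and alveolar fibroblasts 29.3 to 111 CPM. Postn was the largest of the 10 in each mouse, at 7690 to 12969 CPM, and Lamc3 was at 0 in both P7 mice. Not every marker set pericytes apart. At P21 Kcnj8 (28.3 and 82.8 CPM) and Abcc9 (44.7 and 138 CPM) were lower than in vascular smooth muscle of the same mouse (163 and 283, 96.2 and 264 CPM). Kcnj8 was also at 19.7 to 55.9 CPM in alveolar fibroblasts. Notch3 at P7 and Lamc3 at P21 overlapped between pericytes and vascular smooth muscle. The 9 markers of vascular smooth muscle summed to 5329 and 2811 CPM at P7 and 744 and 948 CPM at P21, against 18403 to 24004 CPM in vascular smooth muscle and 1018 to 2264 CPM in alveolar fibroblasts. Acta2 was the largest of them at P7 and Mylk at P21, and Myh11 was at 183 to 375 CPM, whereas Cnn1 and Itih4 were at or below 0.0491 CPM in all 4 mice. Pln and Tesc, which were at or near 0 in vascular smooth muscle too, tell nothing here. The 9 airway smooth muscle and myofibroblast markers summed to 680 to 1390 CPM, mostly Aspn (188 to 609 CPM) and Des (295 to 517 CPM), with Actg2 at P7 and Wnt5a at P21, while Hhip reached at most 0.0655 CPM and Lgr6 at most 1.47 CPM. Summed endothelial markers stayed at or below 216 CPM, epithelial ones at or below 88.2 CPM and immune ones at or below 127 CPM. Striated muscle, mesothelial and adipocyte markers stayed at or below 3.48 CPM and erythroid ones at or below 23.3 CPM.

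The summed libraries held 20082959 and 26234403 reads at P7 and 51087394 and 61097105 at P21. The P7 and P21 males shared a sequencing run, whereas each female had a run of its own, apart from 3 P21 cells of a CD31 sort, so only the male difference lies within a run. Within a single cell, at an equal depth of 100000 reads, the median number of genes detected was 1876 and 2213 in the P7 mice and 2206 and 1307.5 in the P21 mice. The mean difference of -288 genes lay within the spread between mice (exact permutation test, two-sided, p = 0.667, where 2 against 2 mice allow no less than 0.333).

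Of 18072 genes in the table, 11894 had enough reads to be tested, and 6 of them, 0.0504%, passed an adjusted p of 0.05 (edgeR quasi-likelihood test, Benjamini-Hochberg). At an unadjusted p under 0.05, 2.77% of all genes were higher and 1.89% lower. Together these were 4.66%, below the share of 0.05 that such a cut gives when no gene differs. Higher at P21 were 2 genes (0.0168%), Gpx3, a secreted selenium-dependent glutathione peroxidase, and Lipg, the endothelial lipase that acts on phospholipids of high-density lipoprotein. Lower at P21 were 4 genes (0.0336%), the actin genes Acta2 and Actg2, the fibronectin gene Fn1 and the imprinted long noncoding RNA H19. In each of these genes both P21 mice lay outside all 6 younger mice, which 7.57% of all genes tested did upward and 3.46% downward. A low p between P7 and P21 favours this, so it describes the genes and is no test. With DESeq2 size factors in place of TMM the calls were 1 higher and 4 lower, and DESeq2's own test called 446 genes, 279 higher and 167 lower. With the P7 and P21 mice alone 3 genes passed, 1 of them among the 6. The count depended on single mice: it was 18 without the female P1 mouse, 16 without the male P1 mouse, 15 without the male P7 mouse, 1 without the female P21 mouse and 0 without the male P21 mouse (361 genes at an unadjusted p under 0.05).

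**Figure D1:**
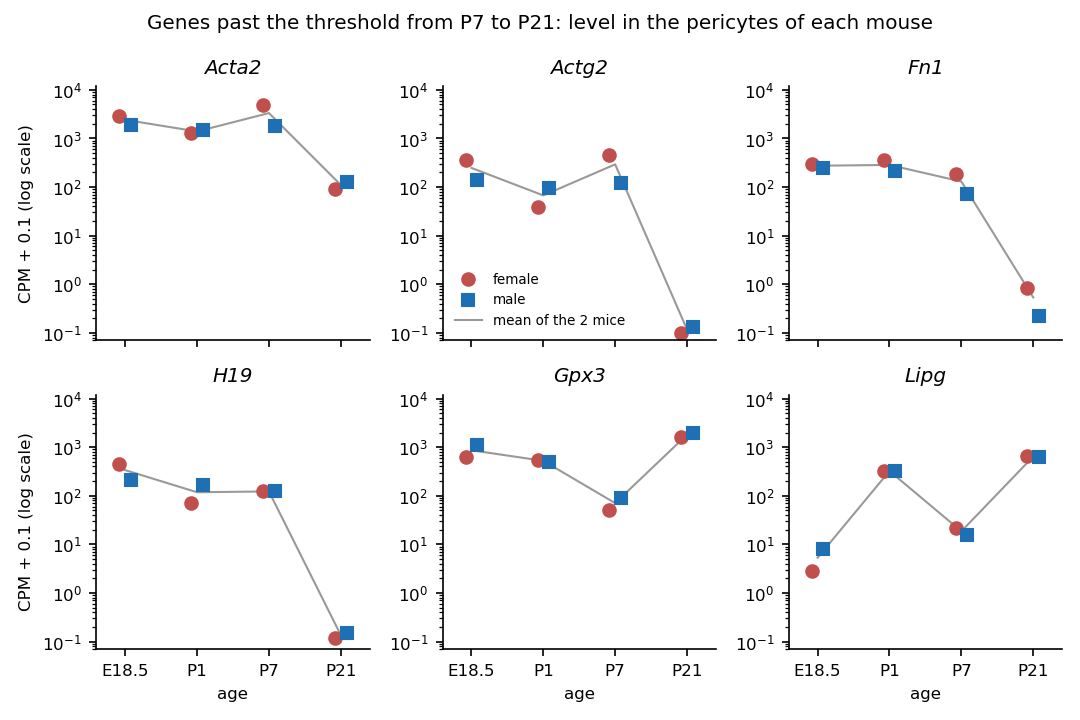
Level of the 6 genes past the threshold in the pericytes of each mouse (CPM plus 0.1, logarithmic axis) by age, with a circle for the female, a square for the male and a line through their mean. At P21 Acta2, Actg2, Fn1 and H19 lie below and Gpx3 and Lipg above all younger mice, and Gpx3 was lowest at P7, at 50.7 and 90.2 CPM.

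Acta2 encodes smooth muscle alpha-actin, the thin-filament actin of contractile cells. Its level was 4827 and 1829.9 CPM in the female and male P7 mice and 92.5 and 128 CPM in the P21 mice. The younger mice were all higher than the P21 mice, at 2911 and 1919 CPM at E18.5 and 1302 and 1483 CPM at P1. Acta2 thus fell by 4.81 on the log2 scale (SE 0.581, edgeR adjusted p 0.00583), and in the males, within a run, the log2 difference was -3.83. The fall was seen in the number of cells as well as in the level. An Acta2 read was found in 76.9% and 80.6% of the P7 pericytes and in 17.1% and 14.7% of those at P21, and at equal depth these shares were 76.0% and 80.0% against 15.9% and 13.9%. The median P7 cell held 2281 and 1612 CPM, the median P21 cell none. A few P21 pericytes kept a high level, up to 2973 CPM in the female and 2547 in the male. In alveolar fibroblasts of the same mice, both labels together, 72.9% and 68.0% of cells had an Acta2 read at P7 and 14.3% and 8.11% at P21. What part reads from other cells have in the pericyte values was not tested.

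Actg2 encodes smooth muscle gamma-actin, whose coding sequence is close to that of Acta2, so reads could be split between them by the counting. It was at 465 and 121 CPM at P7 and at 0 and 0.0349 CPM at P21, that is 12355 reads against 2. The ratio of the normalized counts was 14470, with a 95% interval of 4005 to 119498 (log2 -13.49 in the fit, SE 1.57, edgeR adjusted p 0.00547). That interval covers counting error of reads and not copies of 1 molecule or the spread between cells or mice. In the female P7 mouse 1 cell held 99.5% of the Actg2 reads. In the male P7 mouse 8 of 31 cells (25.8%) had a read and 8 had over 100 CPM. At P21 none of the 70 female cells had one, so the share may still be as high as 4.29%, and in the male 2 of 75 (2.67%) did.

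The 250 bases before the annotated start are shown for Acta2, which fell, and for Myl9, the contractile gene with the next lowest p, which did not pass (edgeR adjusted p 0.424). As background, the promoters of smooth muscle genes are known for the CArG box, a 10-base element with 6 A or T between CC and GG, and nothing here tests its use. The sequences are from RefSeq (GRCm38.p6, 5′ to 3′ on the gene's strand), with CArG boxes and CArG-like elements, which have 1 core base other than A or T, in capitals. Acta2 lies at chr19:34255374-34255623 on the minus strand and Myl9 at chr2:156775214-156775463 on the plus strand.
Acta2: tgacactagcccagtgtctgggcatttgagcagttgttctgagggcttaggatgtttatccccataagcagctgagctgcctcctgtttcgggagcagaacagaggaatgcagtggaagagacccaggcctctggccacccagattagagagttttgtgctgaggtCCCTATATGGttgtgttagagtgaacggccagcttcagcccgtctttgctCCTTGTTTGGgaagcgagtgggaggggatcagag
Myl9: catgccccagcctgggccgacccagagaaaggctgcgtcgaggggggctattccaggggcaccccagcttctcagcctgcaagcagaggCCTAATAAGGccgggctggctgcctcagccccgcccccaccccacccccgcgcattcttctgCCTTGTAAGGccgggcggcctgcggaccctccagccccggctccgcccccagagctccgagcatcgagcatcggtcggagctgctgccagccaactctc
The Acta2 window held 2 CArG-like elements, CCCTATATGG from 84 to 75 bases before the start and CCTTGTTTGG from 34 to 25, and no CArG box. The Myl9 window held the CArG box CCTAATAAGG from 161 to 152 bases before the start and the CArG-like CCTTGTAAGG from 99 to 90. Both elements read as CC and GG at their ends on either strand, so 1 search covers both strands. A CArG box stood in 1.47% and a CArG-like element in 7.24% of the 32851 windows in the reference table, and 0.548% held 2 or more CArG-like elements. Of the 18 contractile protein genes tested, 14 had a window, 2 with a CArG box (Myl9 and Vcl) and 2 with a CArG-like element (Acta2 and Myl9). A match describes these letters and is no evidence of binding. Of the 6 called genes, Acta2 and Gpx3 had a window, and Gpx3 held neither element.

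The other contractile proteins did not move as one. Besides Acta2 and Actg2, none of the 18 tested passed the threshold. With Acta2 and Actg2 included, 7 of 18 had both P21 mice below both P7 mice (38.9%) and 4 had them above (22.2%), where 16.2% of all genes were below and 24.4% above. The median log2 difference of the 18 was -0.25, against 0.20 over all genes tested. Myl9, the regulatory light chain of smooth muscle myosin, was at 3741 and 3537 CPM at P7 and 770.2 and 1166 CPM at P21, with no overlap (log2 -1.93, SE 0.423, edgeR adjusted p 0.424). Tpm2, beta-tropomyosin, was at 367 and 605 CPM against 98.3 and 86.4 CPM (log2 -2.35, SE 0.661, edgeR adjusted p 0.772). Another 3 contractile genes, named after their values were seen, overlapped between the ages: the myosin heavy chain Myh11 was at 252 and 363 CPM against 180 and 274, the myosin light chain kinase Mylk at 288 and 441 against 414 and 554, and the intermediate filament gene Des at 319 and 499.8 against 289 and 393. Synpo2, an actin-bundling protein of the Z-disc, had the opposite order, at 10.8 and 3.50 CPM at P7 and 193 and 114 CPM at P21 (log2 4.46, SE 1.40, edgeR adjusted p 0.879). The summed smooth muscle markers given above moved with these genes, Acta2 being the largest of them at P7, and their part in the result was not tested.

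Vascular smooth muscle of the same mice, labelled as such in 27 and 31 cells at P7 and 33 and 19 at P21, had high actin levels at both ages. Acta2 was there at 19368 and 17170 CPM at P7 and at 14747 and 21614 CPM at P21 (log2 0.01, SE 0.468), and Actg2 at 2356 and 2028 CPM against 1475 and 2524 CPM (log2 -0.08, SE 0.566). The difference between the classes passed in a fit of both classes over 6 mice with the mouse as a block, which called 5 of 12991 genes (0.0385%). The log2 difference of pericytes minus vascular smooth muscle was -4.61 for Acta2 (SE 0.537, edgeR adjusted p 0.0156) and -13.21 for Actg2 (SE 1.31, edgeR adjusted p 0.00866). Neither passed when the female or the male P21 mouse was left out, where 0 genes were called (652 and 204 at an unadjusted p under 0.05). How the subtype labels were assigned is not given in the sources used here. Whether actin levels entered the labels was not tested.

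**Figure D2:**
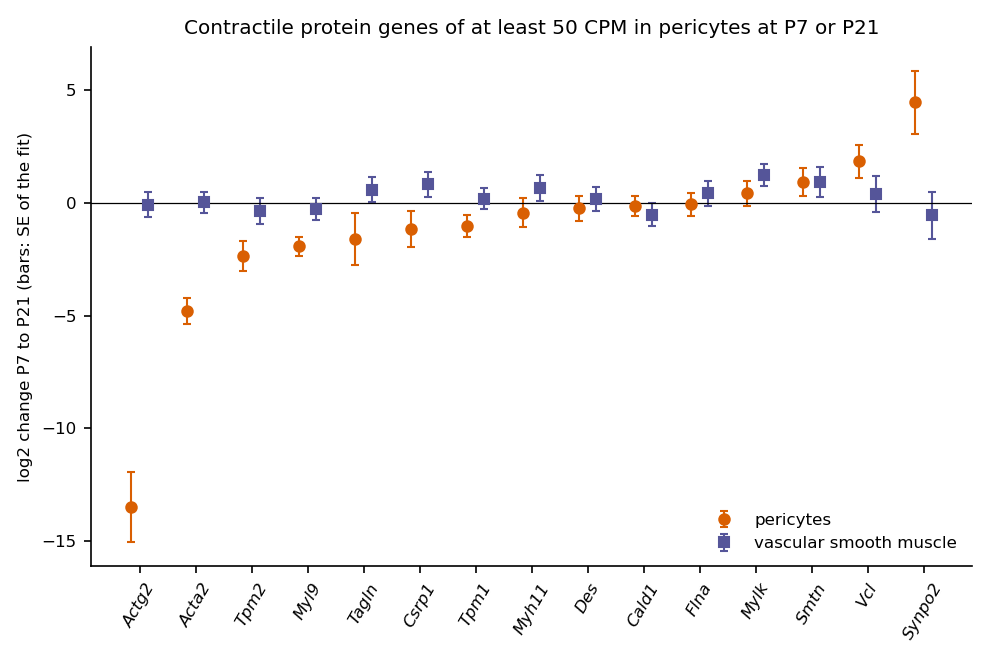
Log2 change from P7 to P21 of the 15 contractile protein genes with at least 50 CPM in pericytes at either age, in pericytes (circles) and in vascular smooth muscle (squares), with the SE of each fit. In pericytes Acta2 and Actg2 lie at -4.81 and -13.49, whereas in vascular smooth muscle both lie near 0 (0.01 and -0.08).

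Besides both actins, the interaction called 3 genes. Kcnj8, the pore of the ATP-sensitive potassium channel of mural cells, was at 51.6 and 44.7 CPM in P7 pericytes and 27.8 and 88.3 CPM at P21, with overlap, below the 186 to 783 CPM of the E18.5 and P1 mice, while vascular smooth muscle went from 0.0347 and 0.0385 CPM to 168 and 326 CPM. The log2 difference of the changes was -12.30 (SE 1.57, edgeR adjusted p 0.0252), and the smooth muscle P7 value rests on 2 reads. Gadd45g, a stress and growth-arrest gene, and Loxl1, a lysyl oxidase that crosslinks elastin, had no read in P7 pericytes, although the E18.5 and P1 mice held 10.7 to 137 CPM of Gadd45g and 3.89 to 35.3 CPM of Loxl1. Gadd45g was at 4.96 and 19.6 CPM at P21, in 2.86% and 6.67% of the cells, and 1 cell held 50.8% of these reads. Loxl1 was at 2.55 and 2.60 CPM at P21, in 2.86% and 1.33% of the cells, and 1 cell held 52.8% of these reads. With no read of either gene in 26 and 31 P7 cells, the P7 shares may still be as high as 11.5% and 9.68%. These limits lie above the P21 shares, so no size of change is given for either gene. In vascular smooth muscle both were high throughout, Gadd45g at 1766 and 2056 CPM at P7 and 1175 and 1579 at P21, and Loxl1 at 751 and 538 CPM against 303 and 477. The 2 comparisons used the same mice. In vascular smooth muscle 10 of 11700 genes passed (0.0855%), among them H19 and Gpx3 in the same direction as in pericytes.

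Fibronectin, the glycoprotein that assembles early matrix and binds integrins, is encoded by the only matrix gene past the threshold. Fn1 was at 189 and 70.3 CPM in P7 pericytes and at 0.749 and 0.122 CPM at P21, with 210 to 360 CPM in the 4 younger mice. It fell by 8.36 on the log2 scale (SE 0.982, edgeR adjusted p 0.00547), and the difference of the males alone was -6.83. At P7, 38.5% and 41.9% of the cells had an Fn1 read, at P21 4.29% and 4.00%, and no P21 cell had over 100 CPM. The P7 level was carried by few cells: the 3 highest held 90.7% of the reads in the female and 82.1% in the male. In alveolar fibroblasts of these mice 81.1% to 99.3% of cells had an Fn1 read at either age. In vascular smooth muscle Fn1 was at 942 and 1395 CPM at P7 and 149 and 126 CPM at P21 (log2 -3.07, SE 0.557, edgeR adjusted p 0.103), and the difference between the classes did not pass (log2 -5.27, SE 1.06, edgeR adjusted p 0.331).

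No other of the 30 interstitial and elastic matrix genes tested passed. Of all 30, Fn1 included, 15 had both P21 mice above both P7 mice (50.0%, where all genes gave 24.4%) and 3 below (10.0%, against 16.2%). The median log2 difference of the 30 was 0.77, or 0.60 with genes at 0 in 1 age set at 3 reads. Summed fibroblast markers were at 269 and 141 CPM at P7 and 749.6 and 529 CPM at P21, against 3949 to 7182 CPM in alveolar fibroblasts. Of the 10 fibroblast markers, Npnt went from 69.2 and 43.4 CPM to 524 and 309, Tcf21 was at 78.0 to 224 CPM throughout, and Dpt (49.2 CPM) and Dcn (26.3 CPM) stood out in the male P21 mouse, while Pdgfra, Col13a1, Lum, Pi16 and Mfap5 stayed at or below 1.15 CPM in all 4 mice. The part of these markers in the matrix genes was not tested. Col6a1, a chain of the microfibrillar collagen VI, was at 7.22 and 82.3 CPM at P7 and 392 and 306 CPM at P21 (log2 3.44, SE 0.948, edgeR adjusted p 0.704). Mgp, an inhibitor of calcification and of BMP ligands, was at 0.307 and 0 CPM against 30.4 and 22.1 CPM (log2 7.46, SE 1.34, edgeR adjusted p 0.113). Both genes had no overlap between the ages, and neither difference passed. The small proteoglycan biglycan, Bgn, was at 1147 and 1126 CPM against 2507 and 2045 CPM, and Timp3, an inhibitor of metalloproteinases bound to matrix, at 82.0 and 33.1 CPM against 464 and 110 CPM. The elastin gene Eln was at 0.154 and 9.65 CPM against 27.6 and 86.2 CPM, far below the 4636 to 12229 CPM of vascular smooth muscle.

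Of 18 basement membrane genes tested none passed, 8 had both P21 mice higher (44.4%, against 24.4% of all genes) and 0 had both lower (against 16.2%), with a median log2 difference of 0.64. The collagen IV chains, the network of the capillary basement membrane, were abundant at both ages, Col4a1 at 2442 and 1494 CPM against 1930.1 and 1738. The laminin chains Lamb2 (73.1 and 57.5 CPM at P7, 356 and 191 CPM at P21) and Lamb1 (432 and 594 against 1056 and 1015) had no overlap, at log2 1.99 (SE 0.732, edgeR adjusted p 0.955) and 1.03 (SE 0.468, edgeR adjusted p 0.955). The perlecan gene Hspg2 was at 44.6 and 24.2 CPM against 238 and 104 CPM.

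H19 is transcribed from the maternal allele beside Igf2 and is shut off in most tissues after birth. It was at 122 and 123 CPM in the P7 mice and at 0.0192 and 0.0524 CPM at P21, and the 4 younger mice held 69.2 to 457.5 CPM. It fell by 11.57 on the log2 scale (SE 1.22, edgeR adjusted p 0.00547). On the scale of log2(CPM + 0.5) the difference was -7.89 in the females and -7.80 in the males. H19 was found in 26.9% and 25.8% of the P7 cells and in 1 cell of each P21 mouse, and 3 cells held 96.3% and 95.02% of the P7 reads. In vascular smooth muscle of the same mice it was at 203 and 315 CPM at P7 and at 0 and 0.0557 CPM at P21.

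H19 was the only call among the 17 imprinted growth genes tested. Both P21 mice were lower in 6 of the 17, H19 included (35.3%, against 16.2% of all genes), and higher in 1 (5.88%, against 24.4%), and the median log2 difference was -0.35. Mest, a hydrolase-like protein of the endoplasmic reticulum, was at 1330.3 and 487 CPM at P7 and 110 and 44.9 CPM at P21 (log2 -3.54, SE 0.582, edgeR adjusted p 0.0786), with a read in 76.9% and 67.7% of cells against 15.7% and 6.67%. Plagl1, a zinc finger factor that binds other imprinted loci, was at 39.7 and 40.9 CPM against 8.49 and 2.32 CPM (log2 -2.97, SE 0.809, edgeR adjusted p 0.688). Cdkn1c, the growth-inhibiting cyclin-dependent kinase inhibitor p57, had the opposite order, at 349.6 and 152 CPM against 561 and 518 CPM. Igf2 itself was low and overlapped, at 4.92 and 23.8 CPM against 24.4 and 3.07 CPM.

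Gpx3 was at 50.7 and 90.2 CPM in the P7 mice and at 1641 and 1963 CPM at P21, after 638 and 1089 CPM at E18.5 and 541 and 505 CPM at P1. The P7 mice were the lowest of the 8 mice and the P21 mice the highest. Gpx3 rose by 4.72 on the log2 scale (SE 0.540, edgeR adjusted p 0.00547), with 5.00 in the females and 4.44 in the males. A read was found in 23.1% and 32.3% of P7 pericytes and in 97.1% and 78.7% at P21, and the median P21 cell held 1461 and 1204 CPM. In alveolar fibroblasts the shares were 72.0% and 63.9% at P7 and 99.5% and 93.2% at P21, and in vascular smooth muscle Gpx3 went from 98.95 and 194 CPM to 3714 and 2792 CPM (log2 4.56, SE 0.590, edgeR adjusted p 0.0148). The difference between both mural classes was 0.32 (SE 0.589).

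Of 25 antioxidant enzyme genes tested, Gpx3 alone passed. Both P21 mice were higher in 5 and lower in 5 (20.0% each, near the 24.4% and 16.2% of all genes), and the median log2 difference was -0.47. Prdx2, a cytosolic peroxiredoxin, was at 849 and 486 CPM against 133 and 247 CPM (log2 -1.86, SE 0.604, edgeR adjusted p 0.898), and the metallothionein Mt1 at 154 and 399 CPM against 58.9 and 48.8 CPM. Selenop, the plasma carrier of selenium, was at 263 and 33.7 CPM against 747 and 539.8 CPM (log2 2.28, SE 0.913, edgeR adjusted p 0.955).

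Lipg was at 21.7 and 15.2 CPM at P7 and at 646 and 637 CPM at P21. Its course was not monotonic, with 2.69 and 7.74 CPM at E18.5 and 328 and 318 CPM at P1. The log2 rise from P7 to P21 was 5.10 (SE 0.763, edgeR adjusted p 0.0423), and the call was lost without the female P7 mouse, without the male P7 mouse, without either P21 mouse, with the P7 and P21 mice alone and with DESeq2 size factors. A read was found in 42.3% and 45.2% of P7 pericytes and in 90.0% and 88.0% of those at P21, against 0.917% to 8.11% of alveolar fibroblasts. In vascular smooth muscle of the same mice Lipg was at 0.173 and 17.6 CPM at P7 and at 88.4 and 95.1 CPM at P21 (log2 7.73, SE 3.01, edgeR adjusted p 0.870). The difference between both mural classes was -0.19 (SE 3.21), so the rise was not particular to pericytes. The 18 lipid handling genes tested had a median log2 difference of 1.54, the highest of the 16 lists, with both P21 mice higher in 10 (55.6%, against 24.4% of all genes) and lower in 3 (16.7%, near the 16.2% of all genes). Pltp, the phospholipid transfer protein of plasma lipoproteins, was at 54.6 and 47.0 CPM against 289 and 277 CPM (log2 2.46, SE 0.866, edgeR adjusted p 0.955). Apoe, the lipoprotein ligand of the LDL receptor, was at 0.0512 and 2.28 CPM against 65.4 and 38.7 CPM (log2 5.88, SE 1.71, edgeR adjusted p 0.783).

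**Figure D3:**
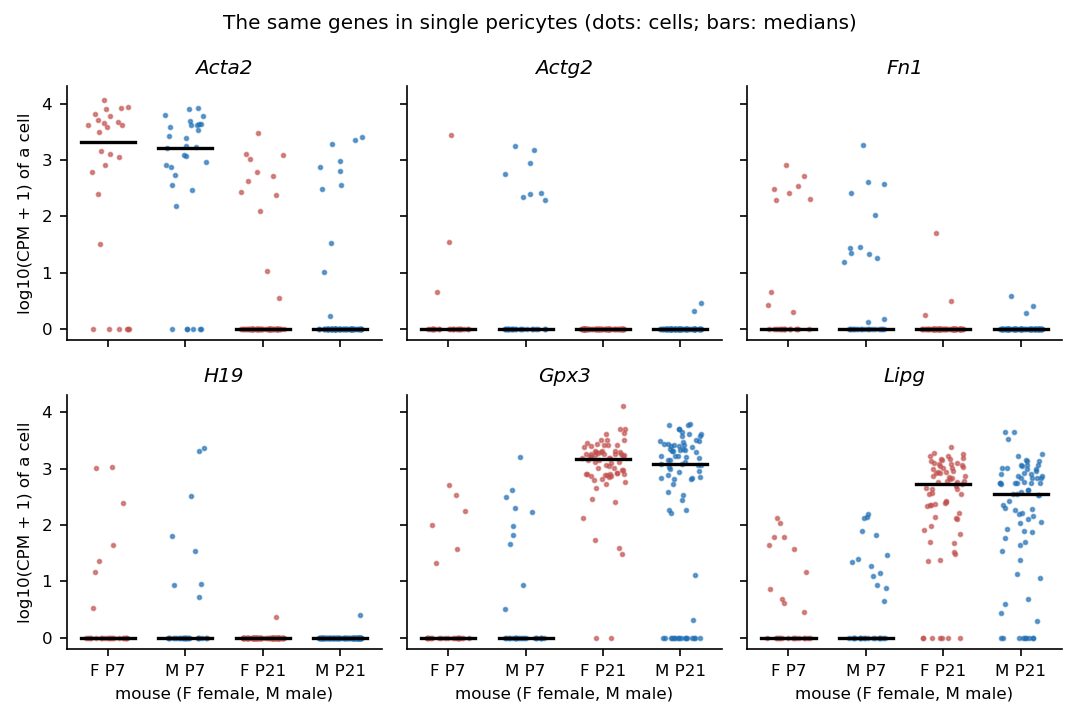
The 6 called genes in single pericytes as log10(CPM + 1), 1 dot per cell and 1 column per mouse, with a bar at the median. Gpx3 and Lipg are found in most P21 cells and in a minority of P7 cells, Acta2 in most P7 cells and few P21 cells, whereas the P7 levels of Actg2, Fn1 and H19 come from a minority of cells, with a median of 0 in every mouse.

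None of the 45 vessel-wall ligands and receptors tested passed. Both P21 mice were higher in 21 of them (46.7%, where all genes gave 24.4%) and lower in 4 (8.89%, against 16.2%), with a median log2 difference of 1.01. They were above all 6 younger mice in 12 of the 45, a larger share than the 7.57% of all genes. Angpt1, the ligand that pericytes send to the endothelial receptor TIE2, was at 93.8 and 188 CPM at P7 and 521 and 594 CPM at P21 (log2 1.97, SE 0.653, edgeR adjusted p 0.918). Hgf, the hepatocyte growth factor, was at 8.66 and 55.7 CPM against 118 and 451 CPM (log2 3.16, SE 1.31, edgeR adjusted p 0.955). Wnt5a, a ligand of noncanonical Wnt signalling, was at 0.819 and 20.6 CPM against 171 and 176 CPM (log2 5.19, SE 1.70, edgeR adjusted p 0.898), with a read in 7.69% and 25.8% of cells at P7 and 52.9% and 44.0% at P21. Edn3, endothelin 3, was at 108 and 138 CPM against 355 and 409 CPM, and at most 39.2 CPM in the E18.5 and P1 mice.

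Among the receptors, endoglin (Eng), a TGF-beta co-receptor, was at 415 and 436 CPM against 1410.2 and 893 CPM (log2 1.43, SE 0.488, edgeR adjusted p 0.955). Pdgfrb, the receptor that holds pericytes at the vessel, was at 1340.1 and 1305 CPM against 3033 and 2009 CPM (log2 0.93, SE 0.450, edgeR adjusted p 0.955), and Notch3, the Notch receptor of mural cells, at 340.2 and 425 CPM against 899 and 667 CPM. In each of these 3 receptors both P21 mice were above all 6 younger mice, and no difference passed.

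The 23 pericyte identity genes tested had both P21 mice higher in 11 (47.8%, against 24.4% of all genes) and lower in 3 (13.0%, against 16.2%), a median log2 difference of 0.44 and no call. Postn, the matrix protein periostin and the most abundant marker, was at 7909 and 10181 CPM at P7 and 12726 and 11216 CPM at P21. Cox4i2, a cytochrome oxidase subunit enriched in pericytes, overlapped, at 2535 and 2594 CPM against 2048 and 3674 CPM. Higd1b, a mitochondrial protein of pericytes, was at 1339 and 2256 CPM against 860.3 and 1313 CPM. Rgs5, a regulator of G-protein signalling often used as a pericyte marker, was at 414 and 187 CPM against 62.2 and 50.4 CPM, with no overlap (log2 -2.33, SE 0.737, edgeR adjusted p 0.879).

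Genes of vessel tone, 38 tested, had both P21 mice higher in 16 (42.1%, against 24.4% of all genes) and lower in 5 (13.2%, against 16.2%), with a median log2 difference of 0.45 and no call. Both subunits of soluble guanylate cyclase, the nitric oxide receptor, were higher in both P21 mice: Gucy1a1 was at 3254 and 5684 CPM against 8237 and 8371 CPM (log2 0.90, SE 0.413, edgeR adjusted p 0.955) and Gucy1b1 at 741 and 1012 CPM against 2182 and 1817 CPM (log2 1.18, SE 0.443, edgeR adjusted p 0.955). Agtr1a, the angiotensin II receptor, was at 428 and 392 CPM against 1066 and 811 CPM, and the background potassium channel Kcnk3 at 479.98 and 433 CPM against 995 and 1161 CPM. Adcy8, a calcium-stimulated adenylyl cyclase, was at 72.3 and 44.4 CPM against 597 and 564 CPM (log2 3.30, SE 0.786, edgeR adjusted p 0.507), with a read in 38.5% and 45.2% of cells at P7 and 88.6% and 68.0% at P21. Rgs4, another regulator of G-protein signalling, was at 284 and 54.1 CPM against 737 and 559 CPM.

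Of 43 transcription factors of lung mesenchyme and vessel wall tested, none passed, 10 had both P21 mice higher and 5 lower (23.3% and 11.6%, near the 24.4% and 16.2% of all genes), with a median log2 difference of 0.18. Snai2, a repressor of epithelial genes that marks mesenchymal plasticity, was nearest to the threshold, at 164 and 395 CPM at P7 and 7.89 and 28.5 CPM at P21 (log2 -4.05, SE 0.646, edgeR adjusted p 0.0675). It was found in 38.5% and 58.1% of P7 cells and in 7.14% and 10.7% of P21 cells. Klf9, a Krüppel-like factor induced by glucocorticoids, was at 8.45 and 3.98 CPM against 106 and 114 CPM (log2 4.14, SE 1.73, edgeR adjusted p 0.955), the homeobox factor Meox2 at 33.8 and 30.0 CPM against 0.0192 and 2.81 CPM (log2 -5.55, SE 2.26, edgeR adjusted p 0.955), and the T-box factor Tbx2 at 187 and 142 CPM against 677 and 399.7 CPM. The 14 glucocorticoid response genes gave 4 higher and 2 lower (28.6% and 14.3%, also near those shares) with a median of 0.32.

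Dividing cells had a label of their own and were not among the 202. Counted with them, proliferating pericytes were 5 of 31 (16.1%, 95% Wilson interval 7.09% to 32.6%) and 5 of 36 (13.9%, 6.08% to 28.7%) at P7. At P21 they were 0 of 70 and 0 of 75, with upper ends of the Wilson interval at 5.20% and 4.87%. In the cells labelled Pericyte, the 25 cell division genes tested had the lowest median of the 16 lists, -2.76, with both P21 mice lower in 16 (64.0%, where all genes gave 16.2%) and higher in 2 (8.00%, against 24.4%), and no call. Ccnb2, a mitotic cyclin, was at 302 and 79.5 CPM against 2.90 and 0 CPM (log2 -8.75, SE 1.79, edgeR adjusted p 0.259). Cdk1, its kinase partner, was at 90.2 and 2.80 CPM against 0.0192 and 0.0873 CPM. Ccnd2, a G1 cyclin, was at 1388 and 1158 CPM against 263 and 711 CPM. Cdkn1a, the inhibitor p21 of cyclin-dependent kinases, had the opposite order, at 0.0512 and 0 CPM against 54.7 and 47.2 CPM, or 1 read against 5550 (ratio of normalized counts 2369, 95% interval for counting error of reads only 425 to 93602, edgeR adjusted p 0.507). When proliferating pericytes were added, 24 genes passed, 3 higher and 21 lower.

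Nuclear genes of oxidative phosphorylation, 106 tested, had both P21 mice lower in 54 (50.9%, against 16.2% of all genes) and higher in 2 (1.89%, against 24.4%), below all 6 younger mice in 31 (3.46% of all genes were), a median log2 difference of -0.88 and no call. Uqcrh, the hinge protein of complex III, was at 328 and 354 CPM against 45.8 and 97.2 CPM (log2 -2.31, SE 0.613, edgeR adjusted p 0.675). Cox4i1, the common isoform of cytochrome oxidase subunit IV, was at 1251 and 1283 CPM against 304 and 633 CPM (log2 -1.54, SE 0.476, edgeR adjusted p 0.879). The deposited counts held 0 genes with the symbol of a mitochondrially encoded gene, so such reads are not part of the CPM. Cytosolic ribosomal protein genes were not analysed here. The number of genes detected per cell at equal depth, given above, was lowest in the male P21 mouse, and its part in this list was not tested.

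Heat shock and immediate early genes differed among themselves. Of 22 tested, 8 had both P21 mice higher (36.4%, against 24.4% of all genes) and 3 lower (13.6%, near the 16.2% of all genes), with a median log2 difference of 0.28 and no call. The inducible genes of the chaperone HSP70, Hspa1a (26.2 and 65.8 CPM against 3466 and 1456) and Hspa1b (0 and 0.368 CPM against 230 and 173) and the co-chaperone Dnajb1 (75.2 and 144 CPM against 866 and 442) were higher in both P21 mice. Their adjusted p values by edgeR were 0.548, 0.507 and 0.642, and reads of the near-identical Hspa1a and Hspa1b could be split by the counting. An Hspa1a read was found in 84.3% and 80.0% of P21 cells against 15.4% and 48.4% at P7. In vascular smooth muscle of the same mice Hspa1a was among the 10 called genes (log2 6.20). By contrast Fos was at 1588 and 1323 CPM against 1400.0 and 783 CPM, and Nr4a1, an orphan nuclear receptor, at 567 and 1720 CPM against 526 and 224 CPM (log2 -1.45, SE 0.648, edgeR adjusted p 0.955).

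None of 21 genes of MHC class I and the interferon response passed, 11 had both P21 mice higher (52.4%, against 24.4% of all genes) and 0 both lower (against 16.2%), and the median log2 difference was 1.32. The class I heavy chain H2-K1 was at 12.1 and 19.0 CPM against 175 and 343 CPM (log2 4.07, SE 1.37, edgeR adjusted p 0.955), and reads of near-identical class I genes could be split. Irf7, a master factor of the interferon response, had no read at P7 and was at 51.7 and 88.8 CPM at P21 (edgeR adjusted p 0.704). The ratio was 1107 with the P7 group set at 3 reads, which covers counting error of reads and not the spread between cells or mice. Immune markers summed to 127 and 89.8 CPM at P7 and 31.4 and 27.2 CPM at P21, and Ptprc, the common leukocyte antigen, was at or below 0.0655 CPM in every mouse.

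Of 14 complement and chemokine genes tested, 6 had both P21 mice higher (42.9%, against 24.4% of all genes) and 3 lower (21.4%, against 16.2%), with a median log2 difference of 0.89 and no call. C1s1, a protease of the classical complement pathway, was at 58.6 and 121 CPM against 523 and 554 CPM (log2 2.63, SE 0.648, edgeR adjusted p 0.548). Cxcl1, a neutrophil chemokine, was at 689.7 and 1026 CPM against 143 and 353 CPM (log2 -1.84, SE 0.532, edgeR adjusted p 0.783).

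**Figure D4:**
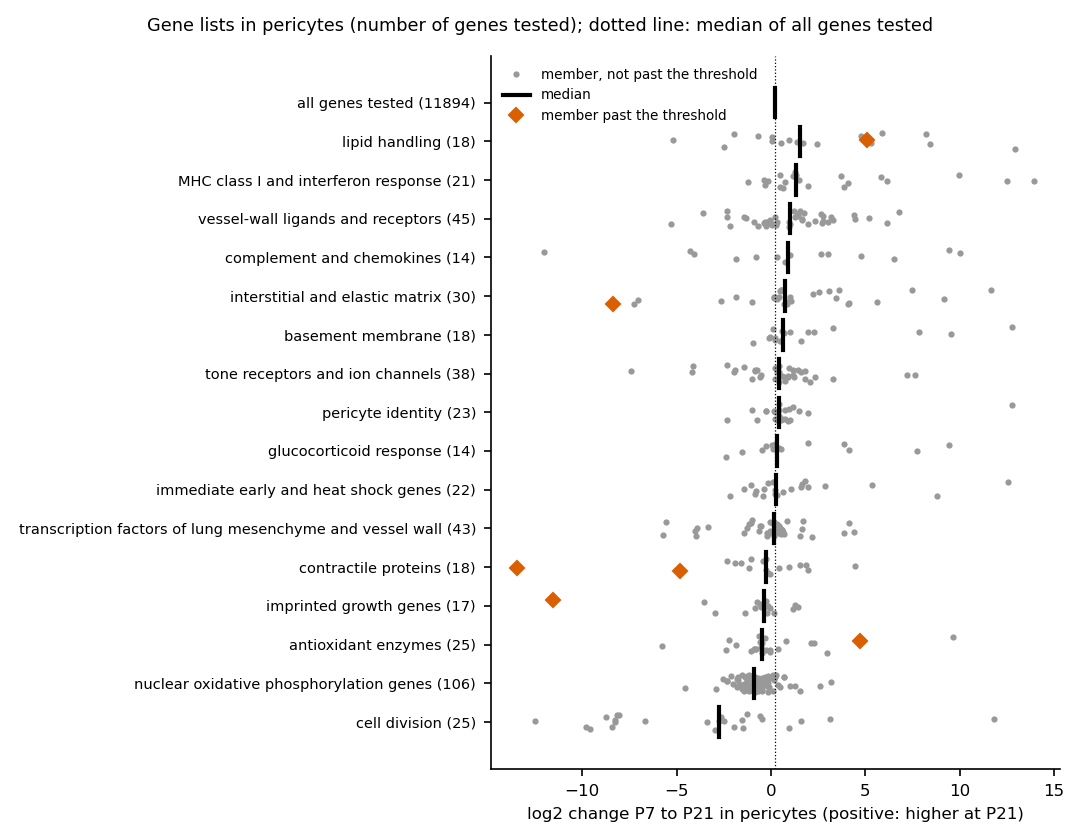
Log2 change from P7 to P21 of every tested member of the 16 gene lists in pericytes (dots), with members past the threshold as diamonds and list medians as bars, ordered by median below the median of all 11894 genes (0.20, dotted line). Medians run from -2.76 for cell division to 1.54 for lipid handling, and 5 lists hold a called gene.

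Past the 6 called genes, 56 had an unadjusted p under 0.01, no overlap between the ages, at least 50 CPM and a read in at least 33.3% of the cells of both mice at the higher age, 2 of them predicted genes. Those with the largest differences upward that are not described above were Prelp, a leucine-rich proteoglycan of basement membranes (90.3 and 10.2 CPM against 1109.6 and 661, log2 4.66, SE 0.809, edgeR adjusted p 0.104), Lrp4, a receptor of agrin and Wnt signals (13.5 and 19.4 CPM against 280.2 and 226), Wnt4, a Wnt ligand (43.9 and 6.41 CPM against 257 and 252), Plpp3, a lipid phosphatase that degrades lysophosphatidic acid (15.8 and 25.3 CPM against 279 and 228), and Npnt, nephronectin (71.1 and 41.9 CPM against 514 and 329). None of these 5 passed. Npnt was also the largest of the fibroblast markers at P21.

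Downward, the largest differences besides Snai2 and Mest were in the following 8 genes. Lgals1, the glycan-binding galectin 1, was at 2942 and 2086 CPM at P7 and 159 and 456 CPM at P21 (log2 -3.12, SE 0.557, edgeR adjusted p 0.113). Mdk, the heparin-binding growth factor midkine, was at 592 and 865 CPM against 37.6 and 223 CPM, with a read in 84.6% and 90.3% of cells against 18.6% and 36.0%. The others were B4galt1, a galactosyltransferase of the Golgi (216 and 322 CPM against 20.0 and 44.0), the chaperone Hspa4 (196 and 92.9 against 23.5 and 11.4), the co-repressor Sin3b (207 and 358 against 51.9 and 39.8), the nucleoside diphosphate kinase Nme2 (237 and 242 against 29.4 and 56.4), the casein kinase Csnk1g1 (179 and 270.4 against 24.9 and 59.2) and Socs2, a feedback inhibitor of growth hormone signalling (276 and 375 against 95.8 and 39.5). No adjusted p among these 10 genes lay under 0.0675.

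**Figure D5:**
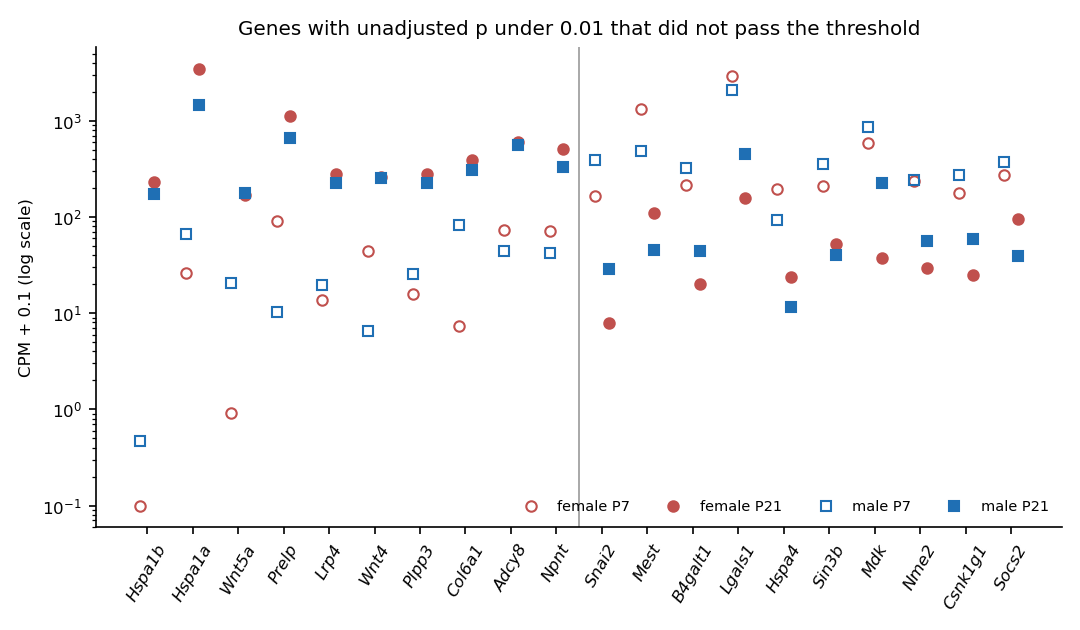
CPM plus 0.1 (logarithmic axis) of the 10 genes with the largest upward (left) and the 10 with the largest downward (right) differences among genes with an unadjusted p under 0.01 that did not pass the threshold, with open symbols for P7 and filled symbols for P21, circles for females and squares for males. For each gene both mice of one age lie above both mice of the other, which the choice of these genes required.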

How the data were processed

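The deposited values were whole-number read counts per gene and cell, which the authors had not normalized, per the file headers and values. Per the submitters' processing notes, STAR 2.5.2b and HTSeq 0.10 were used and the build named is GRCh38, a human build, so no coordinates were taken from the counts, and how genes with near-identical copies were counted is not given in the sources used here. The labels mention no molecular identifiers, so copies of 1 molecule count as separate reads and intervals of ratios cover counting error of reads only. No doublet caller was run.

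Counts were summed per mouse over cells labelled Pericyte and fitted with edgeR 4.0.16 (R 4.3.3): TMM normalization, filterByExpr by group, a term for sex, the two-sided quasi-likelihood test, 8 mice and 3 residual degrees of freedom. Vascular smooth muscle had 6 mice and 2 residual degrees of freedom, since E18.5 mice held under 10 such cells. The interaction had 12 libraries from 6 mice, with the mouse as a block. Each group has 2 mice, which differ in sex. The p-values measure the spread between mice that is left after the terms of each fit. In the fits with a term for sex, a female to male difference shared by all ages is not part of that spread. CPM of genes are TMM-normalized, those of markers and of single cells use the reads in the table. Changes within a sex are on the log2(CPM + 0.5) scale. Shares of cells have 95% Wilson intervals, and where a share of 0 is said to be possibly as high as a value, that value is 3 divided by the number of cells. Equal depth means thinning to 100000 reads, which left out 6 cells. Promoters came from RefSeq GRCm38.p6 by symbol, and 9143 of 11894 tested genes matched. Scripts were tested on simulated data.

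Named were all called genes, 2 to 6 members of each list (called, then of lowest p, then defining ones), the 10 largest rises and falls by the rule stated in the text, and up to 8 genes of the interaction. The members and lists were chosen with earlier results of these data known. Alternatives were other scalings, filters, tools, sets of mice and sets of cells.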

Additional observations from a re-analysis of the deposited data

Results flagged for a closer look

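For 5 genes the change from P7 to P21 differed between pericytes and vascular smooth muscle of the same mice by a test of that difference, with the mouse as a block (edgeR, Benjamini-Hochberg). The log2 change in pericytes minus that in vascular smooth muscle was -13.21 for Actg2 (SE 1.31, adjusted p 0.00866), -4.61 for Acta2 (SE 0.537, adjusted p 0.0156), 11.53 for Gadd45g (SE 1.27, adjusted p 0.0156), -12.30 for Kcnj8 (SE 1.57, adjusted p 0.0252) and 9.81 for Loxl1 (SE 1.30, adjusted p 0.0492). In Actg2 and Acta2 the pericytes went down and smooth muscle did not. In Kcnj8 smooth muscle went from 2 reads to 9426, with pericytes overlapping between the ages. Gadd45g and Loxl1 had no read in P7 pericytes, so their fitted values depend on the prior count and are no measure of size. No group of 4 or more mice exists, so no mouse was tested as an outlier.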

How the results depend on the processing

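For pericytes the count of 6 genes became 446 with DESeq2, 43 without a filter, 3 with the P7 and P21 mice alone, 24 with proliferating pericytes added, 10 with limma on cells of equal weight, and 0 to 18 over the 8 fits that leave out a mouse. It stayed within 1.5 times (5 to 8) with DESeq2 size factors, library totals, a filter of 10 CPM, robust fitting, no sex term and no CD31-sorted cells. For vascular smooth muscle the count of 10 became 691, 28 and 57 under the first 3 of these, and 25 to 212 over the fits without a mouse. For the interaction the 5 became 397, 27 and 1, and 0 to 10 without a mouse (10 without the male P7 mouse). A group left with 1 mouse is assumed to vary like the others. H19, Gpx3, Fn1 and Acta2 passed in 16 of 19 alternatives each, Actg2 in 17 and Lipg in 13. The direction of the 6 was the same in all 19, and without either P21 mouse none of them passed. Reversed values were those of Kcnj8 without the male P7 mouse (-0.013) and without the male P21 mouse (-0.98, with a range up to 1.08 over the fits without a mouse), and of Loxl1 (-0.63), Eln (-0.041) and Des (0.045) with proliferating pericytes added. The others overlapped between the ages. Over the fits without a mouse Myh11 ran from -0.97 to 0.015, Cox4i2 from -0.39 to 0.59, Col4a1 from -0.43 to 0.30 and Igf2 from -2.50 to 1.66, with -0.19 and -0.14 for Igf2 when an E18.5 mouse was left out and -1.20 without the female P7 mouse. Igf2 was also -0.33 with the P7 and P21 mice alone, -0.065 with no sex term, -0.063 with proliferating pericytes and -0.30 by limma, and Col4a1 was 0.00056 without a filter, 0.11 with proliferating pericytes and 0.035 by limma. The cause was not tested. The difference in genes detected per cell was 9.25 without thinning, -233 at 50000 reads and -232 without CD31-sorted cells, each within the spread between mice. It ran from -737 to 161.5 when a mouse was left out, where 1 mouse at an age leaves no spread to set it against. With genes at 0 in 1 age set at 3 reads, list medians moved by at most 0.161, and 0 of 16 changed sign under that setting or under either other scaling. No paired analysis was possible because no mouse gave cells at both ages.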

Other observations

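Both P7 mice lay outside the other 6 mice in 780 of the 11894 genes tested (6.56%), and both P21 mice outside the 6 younger mice in 1311 (11.02%). Of the 554 genes with an unadjusted p under 0.05 in pericytes (4.66% of those tested), 135 were of the first kind (24.37%) and 254 of the second (45.85%), 21 were of both kinds and 186 of neither. A low p between P7 and P21 favours both kinds, so these shares describe the genes and are no test. Among the 135, 88 were higher and 47 lower at P21. Gpx3, Lgals1, Plpp3 and Myl9 were of both kinds. The matrix gene Mgp, named after its values were seen, was at 174 to 651 CPM in the E18.5 and P1 mice, at 0.307 and 0 CPM at P7, and at 30.4 and 22.1 CPM at P21. Midkine (Mdk), chosen likewise, was highest at P7, at 592 and 865 CPM, above 147 to 336 CPM in the E18.5 and P1 mice and 37.6 and 223 CPM at P21.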
